A study of Mus musculus with 12 samples.

Results

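The genes of 9 liver transcription factors were followed in mouse livers after acute iron overload and glucocorticoid stimulation. They are *Hnf4a*, the FOXA genes *Foxa1*, *Foxa2* and *Foxa3*, the C/EBP genes *Cebpa*, *Cebpb* and *Cebpd*, and the homeodomain genes *Onecut1* and *Prox1*. They were picked by symbol, not by a measured value, from the 55414 genes of the count table, and all 9 were among the 13857 genes that passed the filter on low counts.

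The 12 libraries are bulk RNAseq of whole livers of female C57Bl/6J mice, aged 8 to 12 weeks per the study's methods, with 3 mice in each of 4 groups. Mice received 300 mg/kg iron sulfate (FeSO4) or 0.9% NaCl intraperitoneally, 6 h later dexamethasone (DEX, 10 mg/kg) or phosphate-buffered saline (PBS), and the livers were taken a further 2 h later. The groups are named by the pair of injections, from NaCl/PBS, the controls, to FeSO4/DEX, and every mouse was wild type and got both injections. These questions follow from this layout, namely what FeSO4 did, what DEX did, and whether the response to DEX after FeSO4 differed from that after NaCl. The iron dose is a lethal one in this model, the livers show 1 time point, and in a whole liver fewer cells of a type and less RNA per cell cannot be told apart.

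A hepatocyte keeps its identity through a network of DNA-binding proteins that bind each other's genes. HNF4A, a nuclear receptor, drives genes of lipoprotein, clotting factor and bile acid metabolism. FOXA proteins are pioneer factors that open chromatin at liver enhancers. ONECUT1 (HNF6) and PROX1 are homeodomain proteins that act in liver development and in the adult hepatocyte, where PROX1 is known as a repressor partner of HNF4A. The C/EBP proteins share a leucine zipper and bind the same DNA element as dimers. C/EBPα is the form of the resting, metabolically active hepatocyte, whereas C/EBPβ and C/EBPδ are the forms induced by cytokines, cAMP and glucocorticoids in the acute-phase response.

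Library totals ranged from 16335651 to 23827340 reads counted in genes. Between-sample factors of the trimmed mean of M-values method (TMM) were higher in the NaCl/PBS livers than in either FeSO4 group and spanned 0.871 to 1.16, so the choice of scaling moves all genes together: with library size alone the median gene fell by 0.34 on the log2 scale after FeSO4. One control liver, NaCl/PBS 2, had the highest values of its group for *Prox1*, *Onecut1*, *Cebpd* and *Cebpb*. Called results on the 9 genes that it moved by over 1.5 times are given with and without it. Other genes named below were not checked with single libraries left out. All 8 hepatocyte markers were detected, with summed normalized counts of 1925900 to 2285500 in NaCl/PBS and 2400800 to 2688400 in FeSO4/PBS. Most of each sum was *Alb*, with means of 1626400 and 1991800 in these groups, and *Alb* itself was not called for FeSO4 without DEX.

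The sequence just upstream of the genes is shown for the 3 C/EBP genes and for *Foxa3*, because the inducible *Cebpb* and *Cebpd* rose after both treatments while *Cebpa* and *Foxa3* did not. As they were picked by their response, a contrast of letters between them is no result. *Hnf4a*, also higher after both treatments, held neither motif marked below. *Onecut1* held the core of the cAMP response element and was not called higher after either treatment. Each run is the 250 bases before the annotated 5′ end of the canonical transcript, in the GRCm39 genome (the same build as mm39), read 5′ to 3′ on the strand of the gene. Capitals mark the core of the cAMP response element (TGACG, or CGTCA where it lies on the other strand) and the TATA box (TATAAA).
*Cebpa* (chr7:34818478-34818727, plus strand): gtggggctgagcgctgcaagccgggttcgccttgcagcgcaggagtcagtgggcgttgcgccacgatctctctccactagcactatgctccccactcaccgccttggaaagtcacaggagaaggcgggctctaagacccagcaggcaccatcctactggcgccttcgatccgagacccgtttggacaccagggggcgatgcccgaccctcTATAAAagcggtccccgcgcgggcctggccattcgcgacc
*Cebpb* (chr2:167530585-167530834, plus strand): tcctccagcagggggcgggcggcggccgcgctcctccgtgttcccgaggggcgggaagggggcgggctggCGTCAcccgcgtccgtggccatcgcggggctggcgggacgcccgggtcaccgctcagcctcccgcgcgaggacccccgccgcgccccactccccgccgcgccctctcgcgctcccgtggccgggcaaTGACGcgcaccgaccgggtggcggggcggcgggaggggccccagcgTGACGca
*Cebpd* (chr16:15704900-15705149, plus strand): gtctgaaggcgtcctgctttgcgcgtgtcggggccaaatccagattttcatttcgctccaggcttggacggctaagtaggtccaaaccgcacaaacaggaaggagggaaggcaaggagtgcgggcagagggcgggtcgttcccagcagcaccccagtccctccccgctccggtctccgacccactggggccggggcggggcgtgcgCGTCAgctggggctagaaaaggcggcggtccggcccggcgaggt
*Foxa3* (chr7:18757472-18757721, minus strand): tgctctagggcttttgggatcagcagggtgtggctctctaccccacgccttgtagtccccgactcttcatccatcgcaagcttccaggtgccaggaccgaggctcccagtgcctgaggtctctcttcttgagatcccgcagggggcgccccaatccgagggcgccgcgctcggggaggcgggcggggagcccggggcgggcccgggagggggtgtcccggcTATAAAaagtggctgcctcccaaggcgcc

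Each motif was searched on both strands of the same 250 bases of 21770 protein-coding genes, and a match only describes the letters. The core TGACG was found at 3 places before *Cebpb*, with first bases 180, 53 and 7 bases upstream, and once each before *Cebpd* and *Onecut1*. Of all promoters, 18% held it. TATAAA lay before *Cebpa*, *Foxa3* and *Foxa2*, against 11.9% of all promoters. A C/EBP element (TTNNGNAA) lay before *Foxa1* and *Foxa2*, against 36.9%, and a FOX element (TGTTTAC) before *Foxa1*, against 2.72%. The glucocorticoid response element, the full cAMP response element (TGACGTCA, which contains the core), the STAT element (TTCNNNGAA), the HNF4 element, the D-box (TTATGTAA) and the AP-1 element (TGANTCA) were found before none of the 9 genes. These letters stood before 0.299%, 1.69%, 7.7%, 0.0367%, 0.836% and 6.17% of all promoters, respectively. Windows of this length leave out distal enhancers.

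Levels of different genes were compared per length, in TPM (a share of the summed reads per length, which is equal in total for every library) over the union of exons. TPM carries no TMM factor, so differences between groups in TPM are not on the scale of the tests below. In NaCl/PBS livers *Cebpa* (549 ± 80.1 TPM, mean ± SD, n = 3) and *Hnf4a* (533 ± 12.5) were the most abundant of the 9, and their ranges overlapped. With the canonical transcript's length *Hnf4a* stood first, so their order is not settled. *Cebpb* followed at 165 ± 28.3, then *Foxa3* at 103 ± 1.65, *Prox1* at 66.8 ± 23.5, *Foxa2* at 30.7 ± 6.08 and *Foxa1* at 15.6 ± 0.631, with no overlap between neighbours. *Onecut1* (7.62 ± 4.44) and *Cebpd* (6.82 ± 4.2) came last and overlapped each other.

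In the other 3 groups *Hnf4a* was first, *Cebpb* next and *Cebpa* after it, without overlap. In NaCl/DEX these levels were 610 ± 57.9, 360 ± 12 and 334 ± 13.1 TPM. In FeSO4/PBS they were 800 ± 107, 533 ± 36.5 and 341 ± 30.9 TPM. In FeSO4/DEX they were 801 ± 72.7, 585 ± 106 and 358 ± 5.57 TPM. *Cebpd* moved from the last place in NaCl/PBS to the fourth in both FeSO4 groups (63.9 ± 10.0 and 69.3 ± 6.68 TPM), where it lay above *Foxa3* (19.1 ± 4.22 and 18.8 ± 6.72 TPM). *Foxa2* and *Foxa1* overlapped in both FeSO4 groups, as did *Prox1* with *Foxa2*, *Cebpd* with *Foxa1* and *Foxa1* with *Onecut1* in NaCl/DEX.

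**Figure D1:**
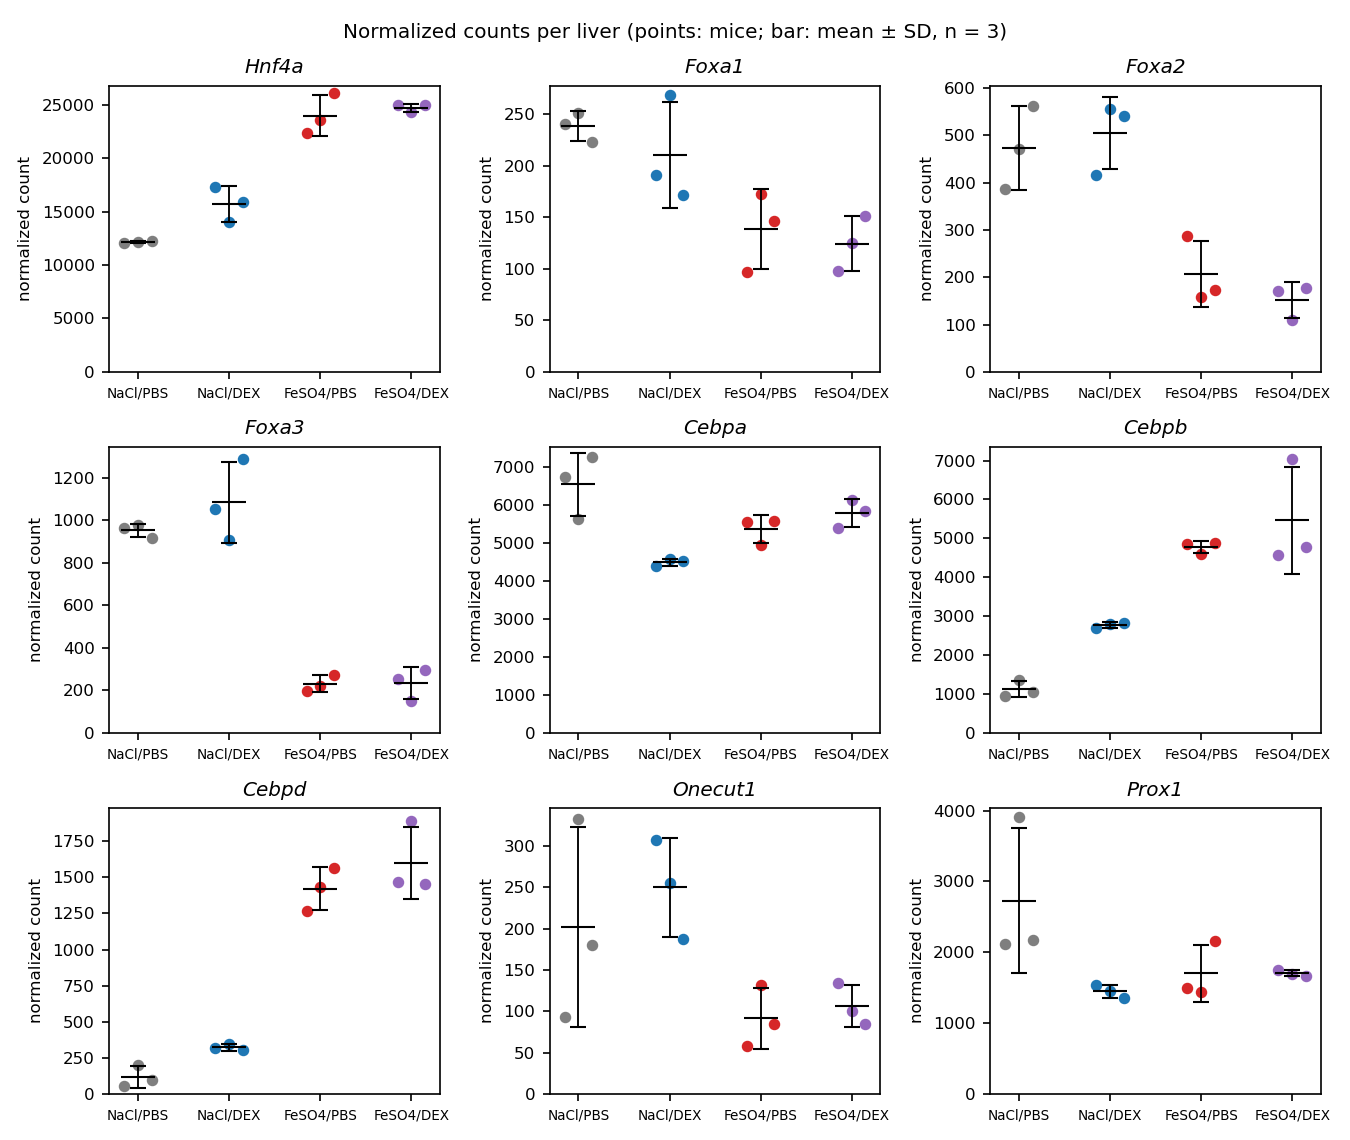
Normalized counts of the 9 genes (y axis, from 0) in each liver by group (x axis), with the mean and SD of 3 mice. *Foxa3* lies between 151 and 297 in the 6 FeSO4 livers and between 909 and 1288 in the 6 NaCl livers, and *Cebpd* between 1269 and 1888 against 56.1 and 348.

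*Hnf4a* (chromosome 2, 163348728 to 163414830, plus strand) was higher after both treatments. Its normalized counts, scaled by TMM to the mean library, were 12102, 12151 and 12230 in NaCl/PBS, 17305, 13988 and 15878 in NaCl/DEX, 22307, 23561 and 26046 in FeSO4/PBS, and 24936, 24267 and 24920 in FeSO4/DEX. The groups were apart except for FeSO4/PBS and FeSO4/DEX, which overlapped. FeSO4 without DEX raised it by a log2 fold change (LFC) of 0.98 (SE 0.11, FDR 6.9e-06, edgeR's quasi-likelihood test with Benjamini-Hochberg adjustment over all tested genes), and FeSO4 with DEX by 0.65 (SE 0.11, FDR 3.2e-04). DEX after NaCl gave an LFC of 0.37 (SE 0.11, FDR 0.038). That call is a weak one: it was lost when any of 5 of the 12 libraries was left out (FDR 0.083 to 0.151) and with library size alone (LFC 0.22, FDR 0.213).

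The 3 FOXA genes were lower in every FeSO4 liver than in every NaCl liver, with the exception of 1 *Foxa1* pair. *Foxa3* (chromosome 7, 18747209 to 18757471, minus strand), which carried 68.9 ± 2.92% of the summed FOXA level in NaCl/PBS, fell most. Its normalized counts were 962, 978 and 918 in NaCl/PBS and 1055, 909 and 1288 in NaCl/DEX, against 199, 223 and 274 in FeSO4/PBS and 253, 151 and 297 in FeSO4/DEX. The LFC was -2.04 (SE 0.20, FDR 2.3e-06) without DEX and -2.21 (SE 0.21, FDR 1.9e-06) with DEX, that is 4.12-fold and 4.61-fold lower.

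*Foxa2* (chromosome 2, 147884797 to 147889005, minus strand), a regulator of bile acid and lipid genes, had normalized counts of 386, 471 and 562 in NaCl/PBS and 286, 159 and 173 in FeSO4/PBS. In the livers given DEX these were 416, 555 and 542 after NaCl and 170, 109 and 177 after FeSO4. The groups were apart in both comparisons, with an LFC of -1.19 (SE 0.23, FDR 6.7e-04) without DEX and -1.72 (SE 0.24, FDR 6.3e-05) with DEX.

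*Foxa1* (chromosome 12, 57587414 to 57593702, minus strand) was the least abundant FOXA gene in controls. It had 241, 252 and 223 normalized counts in NaCl/PBS, 191, 269 and 172 in NaCl/DEX, 96.8, 173 and 147 in FeSO4/PBS, and 97.6, 125 and 151 in FeSO4/DEX. FeSO4 lowered it by an LFC of -0.78 (SE 0.23, FDR 0.0093) without DEX and -0.76 (SE 0.23, FDR 0.015) with DEX, and the latter call was lost without NaCl/DEX 2 (FDR 0.0871) or FeSO4/DEX 1 (FDR 0.0691). DEX after NaCl gave intervals that included 0 for all 3 FOXA genes: -0.65 to 0.29 for *Foxa1*, -0.39 to 0.57 for *Foxa2* and -0.22 to 0.60 for *Foxa3*. None of the 3 was called.

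The summed FOXA level was 149 ± 4.02 TPM in NaCl/PBS and 145 ± 13 in NaCl/DEX, and 36.1 ± 3.78 in FeSO4/PBS and 32.2 ± 9.37 in FeSO4/DEX. As TPM carries no TMM factor, the fall of this sum is not on the scale of the LFCs. With TMM, FeSO4 without DEX lowered *Foxa3* 4.12-fold, *Foxa2* 2.29-fold and *Foxa1* 1.72-fold. The share of *Foxa3* in it was 65.9 to 71.8% in NaCl/PBS and 46.2 to 58.6% in FeSO4/PBS, with no overlap.

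**Figure D2:**
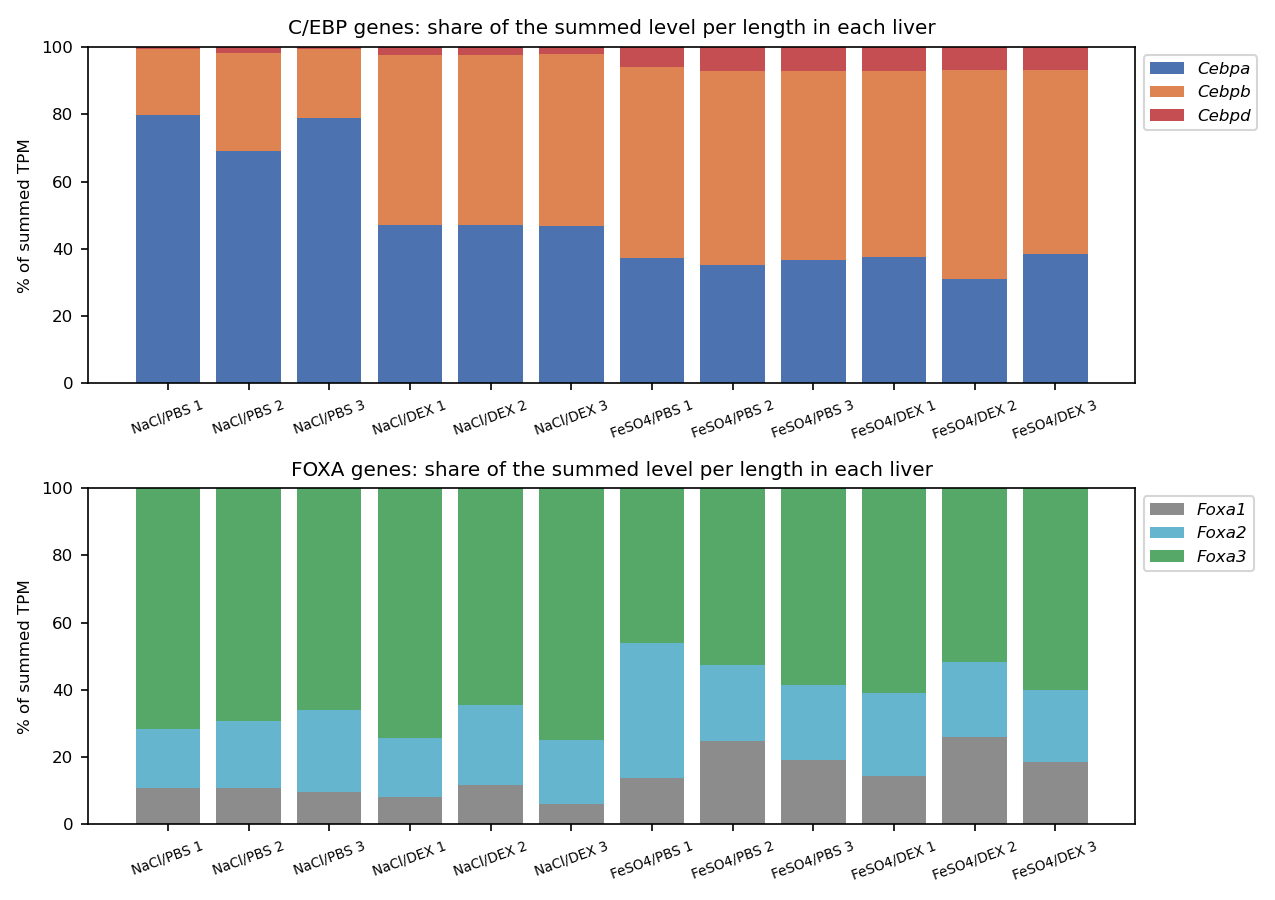
Stacked bars of the percent of summed TPM (y axis) that each C/EBP gene (top) and each FOXA gene (bottom) held in each of the 12 livers (x axis). *Cebpa* holds 69.0 to 79.7% of the C/EBP sum in the 3 NaCl/PBS livers and 31.0 to 47.1% in the other 9.

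The C/EBP genes changed their proportions after either treatment. *Cebpb* (chromosome 2, 167530835 to 167532338, plus strand) had 955, 1366 and 1064 normalized counts in NaCl/PBS and 2685, 2790 and 2828 in NaCl/DEX. In FeSO4/PBS it had 4857, 4591 and 4890, and in FeSO4/DEX 4568, 7041 and 4770. No NaCl liver reached the lowest FeSO4 liver. FeSO4 raised it 4.24-fold without DEX (LFC 2.08, SE 0.17, FDR 3.5e-07) and 1.97-fold with DEX (LFC 0.98, SE 0.16, FDR 2.7e-04). DEX after NaCl raised it 2.45-fold (LFC 1.29, SE 0.16, FDR 1.2e-04).

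*Cebpd* (chromosome 16, 15705150 to 15708895, plus strand) showed the steepest rise of the 9 genes. Its normalized counts were 56.1, 199 and 94.8 in NaCl/PBS, 319, 348 and 302 in NaCl/DEX, 1269, 1435 and 1564 in FeSO4/PBS, and 1466, 1888 and 1451 in FeSO4/DEX. All NaCl/PBS livers lay below all NaCl/DEX livers, and these below all FeSO4 livers. FeSO4 raised it 12.3-fold without DEX (LFC 3.63, SE 0.31, FDR 6.7e-07) and 4.95-fold with DEX (LFC 2.31, SE 0.29, FDR 2.8e-05), and DEX after NaCl 2.81-fold (LFC 1.49, SE 0.31, FDR 0.0047). Without NaCl/PBS 2 the FeSO4 LFC was 4.25 and the DEX LFC 2.12.

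*Cebpa* (chromosome 7, 34818718 to 34821353, plus strand) had its highest mean in NaCl/PBS. It had 6745, 5645 and 7271 normalized counts in NaCl/PBS, 4397, 4576 and 4526 in NaCl/DEX, 5566, 4939 and 5585 in FeSO4/PBS, and 5406, 6133 and 5858 in FeSO4/DEX. DEX after NaCl lowered it by an LFC of -0.54 (SE 0.11, FDR 0.0052), a call that held without any 1 library. FeSO4 without DEX gave an LFC of -0.29 (SE 0.11, FDR 0.043), which was lost without any of 9 of the 12 libraries (FDR 0.0503 to 0.184). Against the lowered NaCl/DEX livers the FeSO4/DEX livers were higher by an LFC of 0.37 (SE 0.11, FDR 0.018), which with library size alone was 0.17 (FDR 0.245) and was lost without NaCl/DEX 1, FeSO4/DEX 2 or FeSO4/DEX 3.

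As shares of the summed C/EBP level, *Cebpa* held 75.9 ± 5.99% in NaCl/PBS and 47.0 ± 0.263% in NaCl/DEX, against 36.4 ± 0.968% in FeSO4/PBS and 35.6 ± 4.05% in FeSO4/DEX. *Cebpb* held 23.1 ± 5.34%, 50.6 ± 0.422%, 56.8 ± 0.658% and 57.5 ± 4.15% in the same order. *Cebpd* rose from 0.968 ± 0.658% to 2.37 ± 0.167%, 6.80 ± 0.722% and 6.85 ± 0.254%. Sums were 721 ± 58.3 TPM in NaCl/PBS and 711 ± 26.2 in NaCl/DEX, against 938 ± 74.3 in FeSO4/PBS and 1012 ± 107 in FeSO4/DEX. These sums carry no TMM factor, so their differences between groups are not on the scale of the LFCs. With TMM, FeSO4 without DEX lowered *Cebpa* 1.22-fold and raised *Cebpb* 4.24-fold and *Cebpd* 12.3-fold. Shares within a library do not depend on that factor. With canonical transcript lengths *Cebpa* held 69.1 to 79.8% in NaCl/PBS and 35.4 to 37.3% in FeSO4/PBS.

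*Onecut1* (chromosome 9, 74769118 to 74800594, plus strand) and *Prox1* (chromosome 1, 189850232 to 189904637, minus strand) varied widely between the control livers, with NaCl/PBS 2 the highest. *Onecut1* had 92.8, 332 and 180 normalized counts in NaCl/PBS, 307, 255 and 187 in NaCl/DEX, 58.5, 131 and 84.2 in FeSO4/PBS, and 134, 101 and 84.4 in FeSO4/DEX. The PBS groups overlapped and the DEX groups did not. The LFC of FeSO4 was -1.13 without DEX (SE 0.40, FDR 0.026) and -1.22 with DEX (SE 0.39, FDR 0.022). Without NaCl/PBS 2 the former was -0.57 (FDR 0.198), without FeSO4/PBS 1 it was -0.88 (FDR 0.0978) and without FeSO4/PBS 3 -1.07 (FDR 0.0708), so the call did not hold. The latter call was lost without NaCl/DEX 1 (FDR 0.0749), FeSO4/DEX 2 (FDR 0.0587) or FeSO4/DEX 3 (FDR 0.0741).

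*Prox1* had 2115, 3906 and 2169 normalized counts in NaCl/PBS, 1540, 1451 and 1351 in NaCl/DEX, 1500, 1444 and 2164 in FeSO4/PBS, and 1752, 1690 and 1669 in FeSO4/DEX. All NaCl/DEX livers lay below all NaCl/PBS livers, whereas FeSO4/PBS overlapped with NaCl/PBS through FeSO4/PBS 3. DEX after NaCl lowered it by an LFC of -0.91 (SE 0.21, FDR 0.0099), which was -0.55 without NaCl/PBS 2 and still called. FeSO4 without DEX gave -0.68 (SE 0.21, FDR 0.013), which was -0.33 without NaCl/PBS 2 (FDR 0.0967) and -0.57 without FeSO4/PBS 2 (FDR 0.0557), and was not called in either case. With DEX the LFC of FeSO4 was 0.24 (95% interval -0.22 to 0.69, FDR 0.39).

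**Figure D3:**
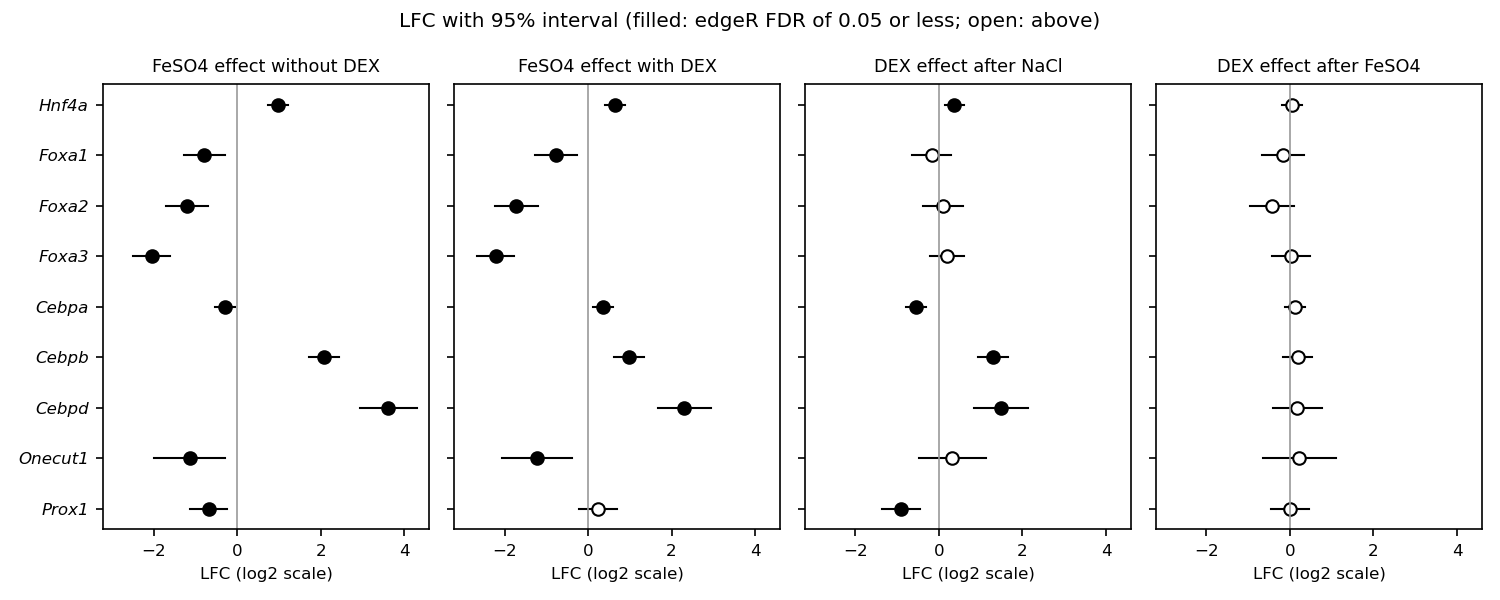
LFC (x axis, log2 scale) with its 95% interval for each of the 9 genes (y axis) in the 4 pairwise comparisons. Filled points have an FDR of 0.05 or less. For FeSO4 without DEX *Cebpd*, *Cebpb* and *Hnf4a* lie right of 0 and the other 6 left of it, and for DEX after FeSO4 no point is filled.

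Counted over the 9 genes, FeSO4 without DEX called 3 higher and 6 lower, against a background of 54.5% of the 13857 tested genes called in that comparison (27.2% higher and 27.3% lower). Groups were apart for 7 of the 9, against 60% of tested genes. FeSO4 with DEX called 4 higher and 4 lower, against 43.3% of tested genes (22.4% higher and 20.9% lower). The groups of this comparison were apart for all 9, against 55.9%. DEX after NaCl called 3 higher (*Hnf4a*, *Cebpb*, *Cebpd*) and 2 lower (*Cebpa*, *Prox1*), against 13.7% of tested genes (6.5% higher and 7.15% lower), with 5 of 9 apart against 37.9%. With a further requirement of an LFC beyond 1 in size, FeSO4 without DEX left *Cebpb* and *Cebpd* higher and *Foxa2*, *Foxa3* and *Onecut1* lower, and DEX after NaCl left *Cebpb* and *Cebpd*. FeSO4 without DEX and DEX after NaCl share the NaCl/PBS livers, so their values are not independent.

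DEX after FeSO4 called none of the 9 genes, and the groups overlapped for all 9, against 0% of tested genes called and 9.3% apart. In this comparison edgeR called no gene at all, 900 tested genes had an unadjusted p under 0.05, and DESeq2 called 5 higher and 5 lower. Among the 9 genes the LFC ran from -0.44 for *Foxa2* to 0.23 for *Onecut1*. The 95% intervals were -0.15 to 0.54 for *Cebpb*, -0.42 to 0.76 for *Cebpd*, -0.13 to 0.36 for *Cebpa*, -0.19 to 0.28 for *Hnf4a* and -0.45 to 0.45 for *Prox1*. The lower bounds after NaCl of *Cebpb* (0.94) and *Cebpd* (0.83) were above the upper bounds here.

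The difference between the DEX effects was tested directly as an interaction. *Cebpb* responded less to DEX after FeSO4 than after NaCl by an LFC of -1.10 (SE 0.23, FDR 0.011), and this call held without any 1 library. For *Cebpa* the difference was 0.66 (SE 0.16, FDR 0.026), but it was lost without any of 8 of the 12 libraries (FDR 0.0551 to 0.0919). These 2 of 9 genes compare with 6.18% of tested genes (2.99% higher and 3.2% lower). *Cebpd* had a difference of -1.32 (95% interval -2.20 to -0.44) and *Prox1* of 0.92 (0.28 to 1.55), with FDRs of 0.076 and 0.089 that missed the threshold. *Cebpd* was called without NaCl/PBS 2 (LFC -1.95, FDR 7.6e-04) and by DESeq2 (LFC -1.35, FDR 0.0224), and *Prox1* without FeSO4/PBS 3 (LFC 1.11, FDR 0.0428), whereas without NaCl/PBS 2 the difference for *Prox1* was 0.55 and not called. The difference for *Hnf4a* was -0.33 (-0.66 to 0.01), and the intervals of the FOXA genes and *Onecut1* included 0.

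Genes linked to these factors were taken from 6 lists and described by counts beside all tested genes, whose median LFC was -0.02 for FeSO4 without DEX, -0.02 for DEX after NaCl and 0.01 for FeSO4 with DEX. Of all tested genes 54.5% were called for FeSO4 without DEX (27.2% higher and 27.3% lower), 13.7% for DEX after NaCl (6.5% and 7.15%) and 43.3% for FeSO4 with DEX (22.4% and 20.9%). Of 18 other hepatocyte transcription factors, 4 rose and 12 fell after FeSO4 without DEX (median LFC -0.89). The largest fall was *Hhex* (LFC -2.95, SE 0.32, FDR 4.3e-06), a homeobox factor of liver development, and the largest rise *Gata6* (LFC 2.20, SE 0.27, FDR 1.5e-05), a zinc-finger factor. After NaCl, DEX raised 1, *Zbtb20* (LFC 0.66, SE 0.15, FDR 0.010), a zinc-finger repressor, and lowered 6, most of all *Tbx3* (LFC -2.57, SE 0.26, FDR 2.4e-05), a T-box repressor. FeSO4 with DEX raised 5 and lowered 7 (median LFC -0.27), with *Gata6* at 1.19 and *Hhex* at -2.14.

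Of 13 other C/EBP family members, partners and regulators, FeSO4 without DEX raised 4 and lowered 5 (median LFC -0.34), beside 27.2% and 27.3% of all tested genes. With library size alone 9 of the 13 were lowered, beside 5829 of the 13857 tested genes. The list median was then -0.67 and that of all tested genes -0.34. *Trib1*, a pseudokinase that directs C/EBPα to degradation, rose by an LFC of 1.71 (SE 0.18, FDR 3.1e-06). *Dbp*, a clock-controlled basic leucine zipper factor, fell by 4.98 on the log2 scale (SE 0.34, FDR 8.9e-08). In NaCl livers DEX raised 1, *Trib2* (LFC 1.04, SE 0.27, FDR 0.018), a relative of *Trib1*, and lowered 2, with *Dbp* at -1.76 (SE 0.28, FDR 8.0e-04). FeSO4 with DEX raised 3 and lowered 5 (median LFC -0.17), with *Trib1* at 1.48 and *Dbp* at -3.33.

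Of 8 genes upstream of *Cebpb* and *Cebpd*, which include receptors, STAT3 and CREB factors, FeSO4 without DEX raised 4 and lowered 2 (median LFC 0.64). *Socs3*, a target and feedback inhibitor of STAT3 signalling, had 458 ± 419 normalized counts (mean ± SD) in NaCl/PBS and 54.1 ± 17.3 in NaCl/DEX. It had 4150 ± 372 in FeSO4/PBS and 3511 ± 1129 in FeSO4/DEX. Its LFC was 3.19 (SE 0.48, FDR 7.8e-05) for FeSO4 without DEX, -3.06 (SE 0.53, FDR 0.0014) for DEX after NaCl and 6.01 (SE 0.57, FDR 2.2e-06) for FeSO4 with DEX. *Nr3c1*, the glucocorticoid receptor, fell after FeSO4 without DEX by an LFC of -0.89 (SE 0.15, FDR 1.8e-04). After NaCl, DEX raised *Il1r1*, the receptor of interleukin-1 (LFC 1.35, SE 0.28, FDR 0.0048), and *Il6ra*, that of interleukin-6 (LFC 1.19, SE 0.13, FDR 2.9e-05), and lowered 1 gene, *Socs3*. FeSO4 with DEX raised 4 and lowered 2 (median LFC 0.40), with *Il6ra* at -0.80 (SE 0.12, FDR 1.6e-04).

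Of 21 known HNF4A target genes, FeSO4 without DEX raised 9 and lowered 2 (median LFC 0.37), beside 54.5% of all tested genes called in either direction. With library size alone it raised 2 and lowered 7, beside 2285 higher and 5829 lower of the 13857 tested genes. The counts in each direction thus rest on the scaling. The list median was then 0.05 and that of all tested genes -0.34, so the list lay above all genes with either scaling. *Apoa4*, an apolipoprotein, rose (LFC 2.47, SE 0.25, FDR 2.8e-06), and *Cyp7a1*, the rate-limiting enzyme of bile acid synthesis, fell from 6960 to 107 normalized counts on average (LFC -6.01, SE 0.49, FDR 3.6e-07). *Cyp7a1* thus fell while *Hnf4a* rose. In NaCl livers DEX raised 2 and lowered none (median LFC 0.04), with *Nr1i2*, the pregnane X receptor, at 0.74 (SE 0.10, FDR 3.0e-04). FeSO4 with DEX raised 8 and lowered 1 (median LFC 0.09), with *G6pc1*, the glucose-6-phosphatase of gluconeogenesis, at 1.78 (SE 0.44, FDR 0.0048) and *Cyp7a1* at -5.66. With library size alone 4 rose and 2 fell, with a list median of -0.10 beside -0.18 for all tested genes.

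Of 10 known metabolic target genes of C/EBP, FeSO4 without DEX raised 4 and lowered 1 (median LFC 0.60). *Igfbp1*, a liver-secreted binding protein of insulin-like growth factors, rose by an LFC of 4.61 (SE 0.46, FDR 2.1e-06), and *Pck1*, the cytosolic gluconeogenic carboxykinase, fell by an LFC of -2.49 (SE 0.41, FDR 1.6e-04). The NaCl/PBS livers varied widely in *Igfbp1* (1643 ± 1293 normalized counts, mean ± SD). DEX after NaCl raised 2 and lowered none (median LFC 0.28), with *Igfbp1* at 2.37 (SE 0.41, FDR 0.0015). FeSO4 with DEX raised 5 and lowered 1 (median LFC 0.32), with *Igfbp1* at 2.65 and *Pck1* at -2.73.

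Of 16 acute-phase genes with C/EBP sites, FeSO4 without DEX raised 9 and lowered 1 (median LFC 0.76). Among the 9, *Saa1*, *Saa2* and *Hp* (FDR 0.030, 0.030 and 0.035) varied widely between the FeSO4/PBS livers. They had 44566 ± 49595, 44366 ± 53804 and 130260 ± 75405 normalized counts (mean ± SD) there. *Lcn2*, which binds bacterial siderophores, rose by an LFC of 3.88 (SE 0.53, FDR 3.3e-05), and *Crp*, a pentraxin, fell by an LFC of -0.66 (SE 0.21, FDR 0.018). In FeSO4/PBS, *Lcn2* had 25097 ± 17035 normalized counts. DEX after NaCl raised 1 and lowered none (median LFC 0.11), namely *Lcn2* at 1.99 (SE 0.49, FDR 0.014). FeSO4 with DEX raised 4 and lowered 1 (median LFC 0.47), with *Fgg*, the gamma chain of fibrinogen, at 1.09 (SE 0.19, FDR 3.6e-04) and *Crp* at -0.80 (SE 0.21, FDR 0.0078). DEX after FeSO4 called no gene of any of the 6 lists.

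**Figure D4:**
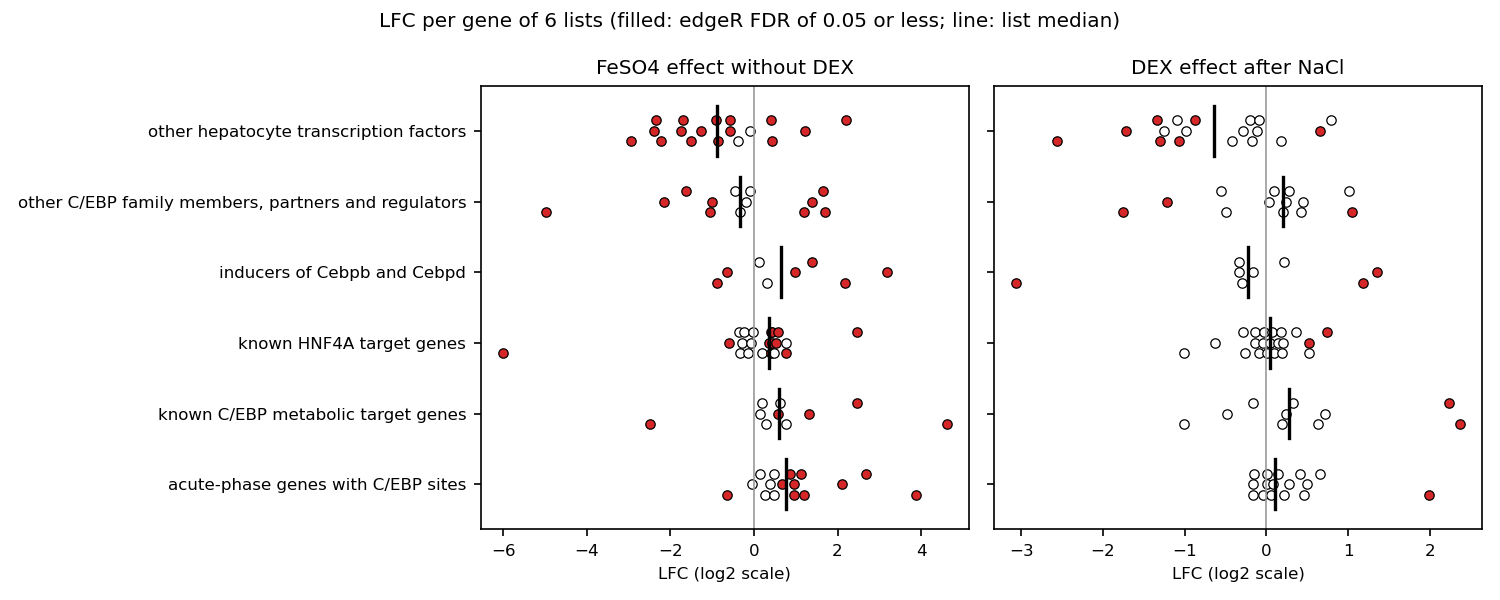
LFC (x axis, log2 scale) of each tested gene of the 6 lists (y axis) for FeSO4 without DEX (left) and DEX after NaCl (right), filled where the FDR is 0.05 or less, with a line at the list median. The median of the other hepatocyte transcription factors lies at -0.89 on the left, and that of the acute-phase genes at 0.76.

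Markers of other cells also differed between the groups. For FeSO4 without DEX 54.5% of all tested genes were called (27.2% higher and 27.3% lower). The counts for bile duct cells and lymphatic endothelium below did not exceed that share. Neutrophils express *Cebpb* and *Cebpd* themselves. Of 7 neutrophil markers 6 were tested, 4 rose and none fell after FeSO4 without DEX, and the summed normalized counts of the list were 129 to 311 in NaCl/PBS and 81.6 to 117 in NaCl/DEX, against 752 to 910 in FeSO4/PBS and 581 to 678 in FeSO4/DEX. *Ly6g* was too low to be tested: it was at 0 in all NaCl/DEX livers and averaged 0.28 normalized counts in NaCl/PBS, 1.78 in FeSO4/PBS and 1.68 in FeSO4/DEX. Of 8 macrophage markers 7 fell after FeSO4, with sums of 7818 to 9138 in NaCl/PBS and 4061 to 4827 in FeSO4/PBS. For bile duct cells, which can express *Onecut1* and *Foxa2*, 2 of 6 tested markers rose and 1 fell after FeSO4 without DEX, and the sum of 7 was 800 to 918 in NaCl/PBS and 1193 to 1488 in FeSO4/PBS. For lymphatic endothelium, which expresses *Prox1*, 1 of 3 tested markers (*Lyve1*, shared with sinusoidal endothelium) rose and none fell, and the sum of 5 was 835 to 1190 in NaCl/PBS and 2391 to 2521 in FeSO4/PBS. The higher sum came from *Lyve1*, with means of 252 and 1786 in these groups. Means of *Flt4* were 749 and 659, of *Pdpn* 7.41 and 2.36, of *Ccl21a* 7.12 and 7.11, and of *Mmrn1* 10.2 and 16.2. The part of these cells in the results was not tested.

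Of the remaining lists, FeSO4 without DEX raised 3 of 8 hepatocyte markers and lowered none, beside the same 54.5% of all tested genes called. It raised 1 and lowered 3 of 7 markers of sinusoidal endothelium, raised 2 and lowered 1 of 6 of stellate cells, raised none and lowered 1 of 2 tested of monocytes, and raised none and lowered 2 of 5 tested of lymphocytes. Of 6 pancreatic acinar markers 1 was tested and not called, and *Cpa1*, *Pnlip*, *Clps* and *Ctrb1* were at 0 in all 12 libraries.

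The genes most like each factor over the 12 libraries were found by Pearson correlation of log2 normalized counts among 8959 tested genes with a mean of at least 100. These values are descriptions, since all points share the 4 groups. *Cebpd* ran closest with *Igfbp1* (r = 0.993), *Mt2*, a metallothionein (0.988), and *Mfsd2a*, a lipid transporter (0.987), and *Cebpb* with *Tacc2* (0.986), *Igfbp1* (0.981) and *Slc38a2*, an amino acid transporter (0.979). *Cebpa* ran with *Mycl* (0.948) and *Tdp2* (0.910). *Hnf4a* ran with *Ube2d3* (0.984), *Wdr75* (0.981) and *Laptm4b* (0.981). *Foxa3* ran with *Fbh1* (0.989), *Mfhas1* (0.984) and *Xylt2* (0.982), *Foxa2* with *Bahd1* (0.979), *Fem1b* and *Hexim1* (both 0.975), and *Foxa1* with *Smim14* (0.943), *Zscan26* (0.937) and *Ipp* (0.929). The likeness was looser for *Onecut1*, with *Ubxn2b* (0.899), *Borcs8* (0.899) and *Plpp5* (0.892), and for *Prox1*, with *Stmp1* (0.926), *Tlr3* (0.858) and *Zeb2* (0.855). By Spearman correlation none of the 3 stayed among the top 3 for 5 of the 9 factors (*Hnf4a*, *Foxa3*, *Cebpb*, *Cebpd* and *Onecut1*), 1 stayed for *Foxa1* and *Cebpa*, and 2 for *Foxa2* and *Prox1*.

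Some of these genes overlap others in the annotation, and the strand setting of the counts is not given in the sources used here. *Peds1* lies opposite *Cebpb* (162 to 977 counts against at least 1257 for *Cebpb*), *Spidr* opposite *Cebpd* (77 to 170 counts against at least 78), *Hnf4aos* opposite *Hnf4a* (35 to 111 against at least 12995), *Prox1os* opposite *Prox1* (48 to 119 against at least 1243) and *Gm45091* opposite *Cebpa* (0 to 25 against at least 4096). For *Spidr* the counts were as high as the lowest of *Cebpd*.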

How the data were processed

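RNA of livers (3 mice per group, 12 libraries) was sequenced with a stranded mRNA kit (TruSeq Stranded mRNA) in single reads of 100 cycles. The authors checked reads with FastQC and mapped them with STAR 2.7.10b to mm39, and deposited raw read counts per Ensembl gene (55414 genes), which hold no normalization. Which strand column of STAR was deposited is not given in the sources used here. Groups come from the sample titles. Raw counts were analysed in R 4.3.3 with edgeR 4.0.16: filterByExpr (minimum count 10, 13857 genes kept), TMM factors, one mean per group, quasi-likelihood tests (8 residual degrees of freedom), and Benjamini-Hochberg adjustment over all tested genes with calls at an FDR of 0.05 or less. Fold changes use a prior count of 0.125. TPM used exon lengths of the GENCODE annotation of GRCm39. Sequences came from GRCm39.

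Library totals were 16335651 to 23827340 and the lowest count of a followed gene was 58. Alternatives were DESeq2 1.42.0, its size factors, library size alone, other filters, a replicate block, fits on the compared libraries, a limit on LFC, and each library left out. The script was tested on simulated data. Named genes are the 9 factors, the 3 most similar genes of each (1 of those of *Cebpa* is not reported here), and of each list the called gene with the largest LFC in either direction in each comparison. *Il6ra* after NaCl was added after its value was seen, and *Saa1*, *Saa2* and *Hp* were added for their spread. *Tf* of the HNF4A list was found as *Trf*. The genes and lists were chosen with earlier results of these data known. Replicates of a group differed by more than sampling noise. In FeSO4/PBS, replicate 1 stood furthest off, with a chi-square per gene of 81.4 against replicate 2 and 64.9 against replicate 3. Replicates 2 and 3 gave 22.0 between them. Replicate numbers did not pair the mice. The labels name no batch.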

Additional observations from a re-analysis of the deposited data

Results flagged for a closer look

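For 9 of the named genes the response to DEX after FeSO4 differed from that after NaCl in the test of the difference itself (edgeR, interaction term, FDR of 0.05 or less, 3 mice per group). For *Cebpb* the LFC of DEX was 1.29 after NaCl and 0.19 after FeSO4, a difference of -1.10. For *Cebpa* it was -0.54 and 0.11, a difference of 0.66 that was lost without any of 8 of the 12 libraries. *Zbtb20* had 0.66 and -0.32, a difference of -0.98 (FDR 0.015). *Tbx3* had -2.57 and -0.29, a difference of 2.28 (FDR 0.0029). *Dbp* had -1.76 and -0.10, a difference of 1.66 (FDR 0.048), a call that was lost with DESeq2's size factors. *Socs3* had -3.06 and -0.24, a difference of 2.82 (FDR 0.025). *Il1r1* had 1.35 and -0.40, a difference of -1.75 (FDR 0.016), and *Il6ra* 1.19 and 0.09, a difference of -1.10 (FDR 0.0022). *Lcn2* had 1.99 and -0.85, a difference of -2.84 (FDR 0.023). In NaCl/PBS, *Socs3*, *Il1r1* and *Lcn2* varied widely (458 ± 419, 1212 ± 627 and 1703 ± 1240 normalized counts, mean ± SD). Genes other than *Cebpb* and *Cebpa* were not checked here with single libraries left out. None of the effects after FeSO4 passed the threshold on its own. *Zbtb20*, *Tbx3*, *Dbp*, *Socs3*, *Il1r1* and *Lcn2* were named for their called DEX effect after NaCl, which is a term of the difference, and *Il6ra* after NaCl was added once its value was seen, so their number says nothing about how common such differences are.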

How the results depend on the processing

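Library size alone put the median LFC at -0.34 for FeSO4 without DEX, -0.18 for DEX after NaCl and -0.18 for FeSO4 with DEX, and then called 2285 genes higher and 5829 lower for FeSO4 without DEX against 3770 and 3783 with TMM, and 1776 lower for DEX after NaCl. No called factor changed direction under any setting. Values near 0 did: with library size alone *Foxa2* after DEX in NaCl livers -0.0581, *Foxa3* and *Prox1* after DEX in FeSO4 livers -0.0046 and -0.0332, and *Onecut1* in the difference of the DEX effects 0.033; *Prox1* after DEX in FeSO4 livers also with DESeq2 (-0.0145), its size factors (-0.0141), no filter (-0.0087) and the compared libraries alone (-0.0035); *Foxa1* in the difference with DESeq2 (-0.0229), its size factors (-0.0237) and no filter (-0.0026). An LFC beyond 1 left 1730 higher and 2040 lower genes (3 of the factors lower) for FeSO4 without DEX, and 411 and 473 (0 of the factors lower) for DEX after NaCl. It left 1474 and 1362 genes (1 of the factors higher) for FeSO4 with DEX, and 297 and 277 (0 of the factors higher) for the difference. DESeq2 called 5 higher and 5 lower for DEX after FeSO4, and 747 lower genes with 2 factors lower for the difference. Without a filter DEX after FeSO4 gave 99 and 71, and the difference 683 and 776 with 2 and 2 factors. Fitting the compared libraries alone left 3 factors lower for FeSO4 without DEX (*Onecut1* FDR 0.0608, *Prox1* 0.0517, *Cebpa* 0.106). *Cebpa* was also lost there with DESeq2's size factors (FDR 0.0566) and no filter (0.114), as was *Hnf4a* for DEX after NaCl with no filter (0.0813). Of the 6 gene lists, library size alone also moved the other hepatocyte factors (2 higher) for FeSO4 without DEX, the upstream genes (4 lower for DEX after NaCl, 2 higher for FeSO4 with DEX), the HNF4A targets (1 higher for DEX after NaCl) and the metabolic C/EBP targets (3 higher for FeSO4 with DEX). DESeq2's size factors left no gene of the other C/EBP family list higher in the difference, where *Dbp* was called with TMM. The cause was not tested.

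Same-numbered mice did not deviate together (correlations -0.071 to 0.109 over 18 pairs). With a replicate block 2 factors were lower in the difference (*Cebpd* FDR 0.0382), *Cebpa* for FeSO4 without DEX (FDR 0.0608) and *Hnf4a* for DEX after NaCl (FDR 0.0648) were not called, and *Foxa3* for DEX after FeSO4 was at -9e-04.

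Leaving out 1 library each gave 578 to 1259 genes lower for DEX after NaCl, 0 to 1 higher for DEX after FeSO4, and for the difference 229 to 408 higher genes with 0 to 2 factors higher and 1 to 2 lower. LFCs that crossed 0 ran from -0.0239 to 0.2447 (*Foxa2*) and -0.0257 to 0.8876 (*Onecut1*) for DEX after NaCl. For DEX after FeSO4 they ran from -0.0274 to 0.1007 (*Hnf4a*), -0.3917 to 0.036 (*Foxa1*), -0.1904 to 0.2325 (*Foxa3*), -0.0497 to 0.3036 (*Cebpb*), -0.0371 to 0.5956 (*Onecut1*) and -0.1049 to 0.2045 (*Prox1*). For the difference they ran from -0.2354 to 0.2312 (*Foxa1*), -0.3977 to 0.0254 (*Foxa3*) and -0.6666 to 0.2764 (*Onecut1*). *Foxa1*, *Foxa2*, *Onecut1* and *Cebpd* had under 100 counts in at least 1 library, which limits their precision.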
